A study of Mus musculus with 8 samples.

Results

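Amino acids and amine neurotransmitters cross membranes through carriers of a few solute carrier (Slc) families, and the genes of 7 of these families were followed here in AML12 mouse hepatocytes with and without VWA8. Members were taken by name alone: every gene whose symbol begins with Slc1a, Slc3a, Slc6a, Slc7a, Slc36a, Slc38a or Slc43a and a number, provided that a probe set of the array carried that symbol and no other. Where a gene had several such probe sets, the one with the highest mean over the 8 arrays stood for it. The rule found 64 of the 22180 measured genes. Slc36a1os, Slc6a19os and Slc7a6os are opposite-strand genes beside a carrier and not carriers themselves, which leaves 61 carrier genes. Slc6a9, the glycine transporter of glia, shares its probe set with Ccdc24 and was not analysed here.

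AML12 is a hepatocyte line from mouse liver, grown here with insulin, transferrin, selenium and dexamethasone, a synthetic glucocorticoid, in the medium of both groups. VWA8 is a mitochondrial ATPase, and its gene was deleted in one group by CRISPR/Cas9. Total RNA of 4 wild-type and 4 VWA8-null (knockout) cultures, kept separate and differentiated, was hybridised to 1 Affymetrix mouse array each. The labels do not say whether the knockout cells are 1 clone or several, so a clone's own difference and the effect of the deletion cannot be told apart. RNA came from whole cultures, in which fewer cells making a transcript and less of it per cell cannot be told apart. Values are log2 signals as deposited, and log2 fold changes are knockout minus wild-type throughout, ± SE from limma, with p-values adjusted over all 22180 genes by the Benjamini-Hochberg method.

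The arrays were alike in scale, with medians between 4.27 and 4.33. Vwa8 read 8.95, 9.01, 8.91 and 8.95 on the wild-type arrays and 5.12, 5.22, 5.07 and 5.33 on the knockout arrays, so the labels of both groups fit the targeted gene (exact two-sided permutation p = 0.0286, the smallest that 4 against 4 arrays allow). Of 9 measured hepatocyte markers, all lay above the array median and all rose in the knockout, among them Alb by 0.23 ± 0.0483 and Fgb by 1.29 ± 0.0591. Of all genes 20.9% passed the limma test in either direction, and 35.1% of those at or above the array median. The mean signal of the 9 hepatocyte markers ran from 9.73 to 9.82 over the wild-type arrays and from 10.3 to 10.4 over the knockout arrays. Of 5 cholangiocyte markers Krt7 and Cftr fell, by 0.52 ± 0.0835 and 0.92 ± 0.108 on the log2 scale. They make 40% of the list, against 35.1% of all genes at or above the array median, where 4 of the 5 lie. Sox9 and Krt19 were bright in both groups. The list's mean ran from 6.43 to 6.60 over wild-type and from 6.15 to 6.31 over knockout arrays. Markers of fibroblasts or stellate cells (6 genes), blood cells (5), endothelium (4) and kidney tubule (4) had no member past the test. Of these lists 6, 3, 3 and 3 genes lay below the array median, where 3.96% of all genes passed. Of 4 astrocyte markers Aldh1l1, a folate enzyme also known from liver, rose by 0.70 ± 0.0753. That is 25% of the list, against 20.9% of all genes, with 2 of the 4 at or above the array median. The list's mean ran from 4.84 to 5.04 over wild-type and from 4.95 to 5.22 over knockout arrays. The part of these markers in the transporter results was not tested.

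The carriers divide by how they are built and driven. Slc7 light chains of the heterodimeric kind do the transport but reach the surface bound to an Slc3 heavy chain, either Slc3a2 (also called 4F2hc or CD98) or Slc3a1 (rBAT). Slc1, Slc6 and Slc38 carriers use the sodium gradient, the Slc36 carrier Slc36a1 uses protons, and Slc43 carriers let large neutral amino acids pass down their gradient. In liver, such carriers feed glutamine and other amino acids to urea synthesis, gluconeogenesis and protein synthesis, while most neurotransmitter carriers are known from neurons and glia.

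The largest rise was that of Slc3a1, whose protein rBAT carries the cystine and dibasic amino acid transporter of kidney and gut to the membrane. The letters CAAAGTCCA, a core bound by the hepatocyte receptor HNF4A, were searched on both strands of the 250 bases before each annotated start in RefSeq's GRCm38.p6 promoters. They were found in 0.384% of 32851 promoters and in 1 of the 66 promoters of 47 members, that of Slc3a1. The run at chr17:85028097-85028346 on the plus strand ends at the base before the annotated start. It is shown because it belongs to the member with the largest rise, with the match in capitals 39 to 31 bases before the start.
Slc3a1: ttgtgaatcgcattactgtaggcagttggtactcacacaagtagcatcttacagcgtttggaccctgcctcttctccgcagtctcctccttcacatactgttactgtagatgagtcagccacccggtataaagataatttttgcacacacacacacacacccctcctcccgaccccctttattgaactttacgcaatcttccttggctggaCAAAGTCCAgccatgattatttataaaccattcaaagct

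Slc36a1 and Slc38a7 encode carriers of the lysosomal membrane, the first for small neutral amino acids with protons and the second for glutamine, and both genes rose. Their promoters share the palindrome CACGTG, the E-box read by MYC and by lysosomal regulators of the TFEB kind. It lay in 6.02% of all promoters and in 9 of the 66 member promoters (13.6%). The 24 bases around it are printed for these members, with the palindrome in capitals, from chr11:55204300-55204323 on the plus strand and chr8:95853511-95853534 on the minus strand.
Slc36a1: atggagcggCACGTGacctgggct
Slc38a7: attcaggctCACGTGttacttgag
The palindrome began 31 bases before the start listed with the Slc36a1 promoter and 34 before that listed with the Slc38a7 promoter. The RefSeq span of Slc38a7, on the minus strand, reaches chr8:95853577. Its palindrome therefore lies inside that span and not upstream of the whole gene. The other 7 members with the palindrome were Slc1a6, Slc1a7, Slc38a5, Slc43a1, Slc6a3, Slc6a16 and Slc7a14, and none of them passed the test. The letters TGATGNAA, the core to which ATF4 binds in amino acid response genes, lay in 3.45% of all promoters and in 4 of the 66 (6.06%), belonging to Slc6a21, Slc7a11 and Slc7a7, of which none passed. The GC box GGGCGG, the last of the 4 motifs searched, lay in 32.7% of all promoters and in 31 of the 66 (47.0%), those of 4 members past the test among them. Promoters were listed for 7 of the 11 members that passed the test. None was listed for Slc7a5, Slc38a3, Slc1a5 and Slc7a3, so no motif was searched for in these genes. A match of letters is a description and no measure of binding. The motifs, and the matches printed, were chosen with the members' changes known.

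Of the 64 members, 5 rose and 6 fell in the knockout at an adjusted p of 0.05. The rises were Slc3a1, Slc38a3, Slc1a4, Slc36a1 and Slc38a7, and the falls Slc6a20a, Slc7a5, Slc43a2, Slc1a5, Slc7a1 and Slc7a3. Together they make 17.2% of the members, against 20.9% of all genes (10.4% higher and 10.4% lower). The share of members that changed was therefore no greater than that of genes at large. The median log2 fold change was -0.01 over the members and -0.003 over all genes. The 2 genotypes did not overlap in 13 members (20.3%), against 26.1% of all genes.

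Changes were seen in the brighter members. A mean below 4.29 was found for 34 members, that value being the median of all probe sets and arrays. Of these 34, 0 passed the limma test, where 3.96% of all genes in that range passed. An unadjusted p under 0.05 was found for 0 of the 34, against 1097 of the 10147 genes in that range. Of the 30 brighter members 11 passed (36.7%), against 35.1% of all genes that bright. With no detection call in the deposited values, a dim probe set may mean little transcript or none, and a change there may escape the array. Probe sets differ in affinity, so signals of different genes are not compared as levels of expression. Spread between arrays was larger in the dim members, whose wild-type SD had a median of 0.187, than in the brighter ones, at 0.102.

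**Figure D1:**
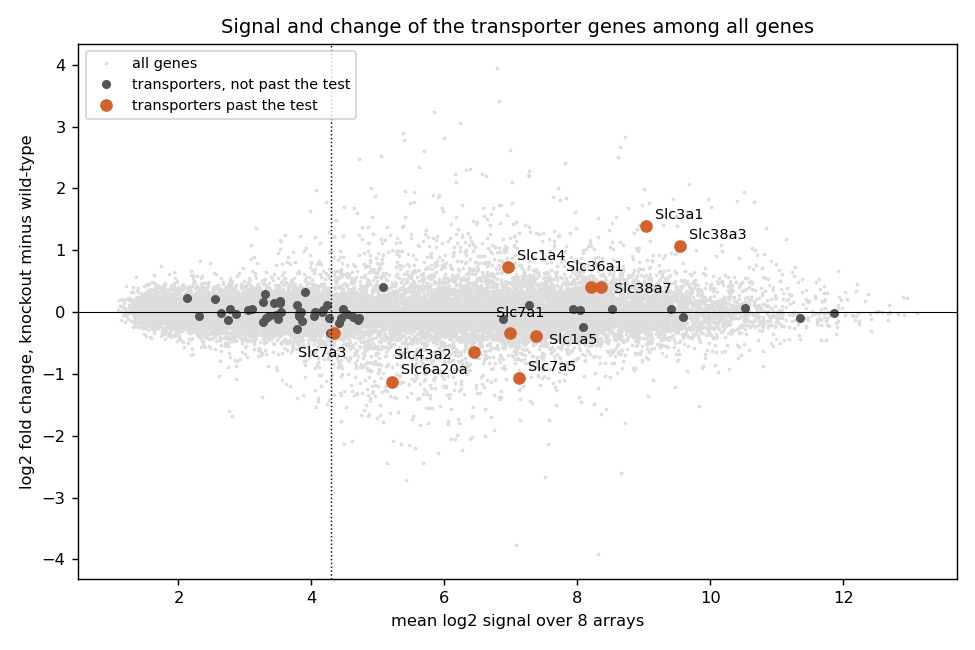
Mean log2 signal over the 8 arrays (x axis) against the log2 fold change, knockout minus wild-type (y axis), for all 22180 genes in grey and the 64 members in dark grey or, where past the test, orange. The dotted line is the median of all probe sets, 4.29, and the 11 members past the test all lie to its right, between Slc6a20a at -1.12 and Slc3a1 at 1.39.

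**Figure D2:**
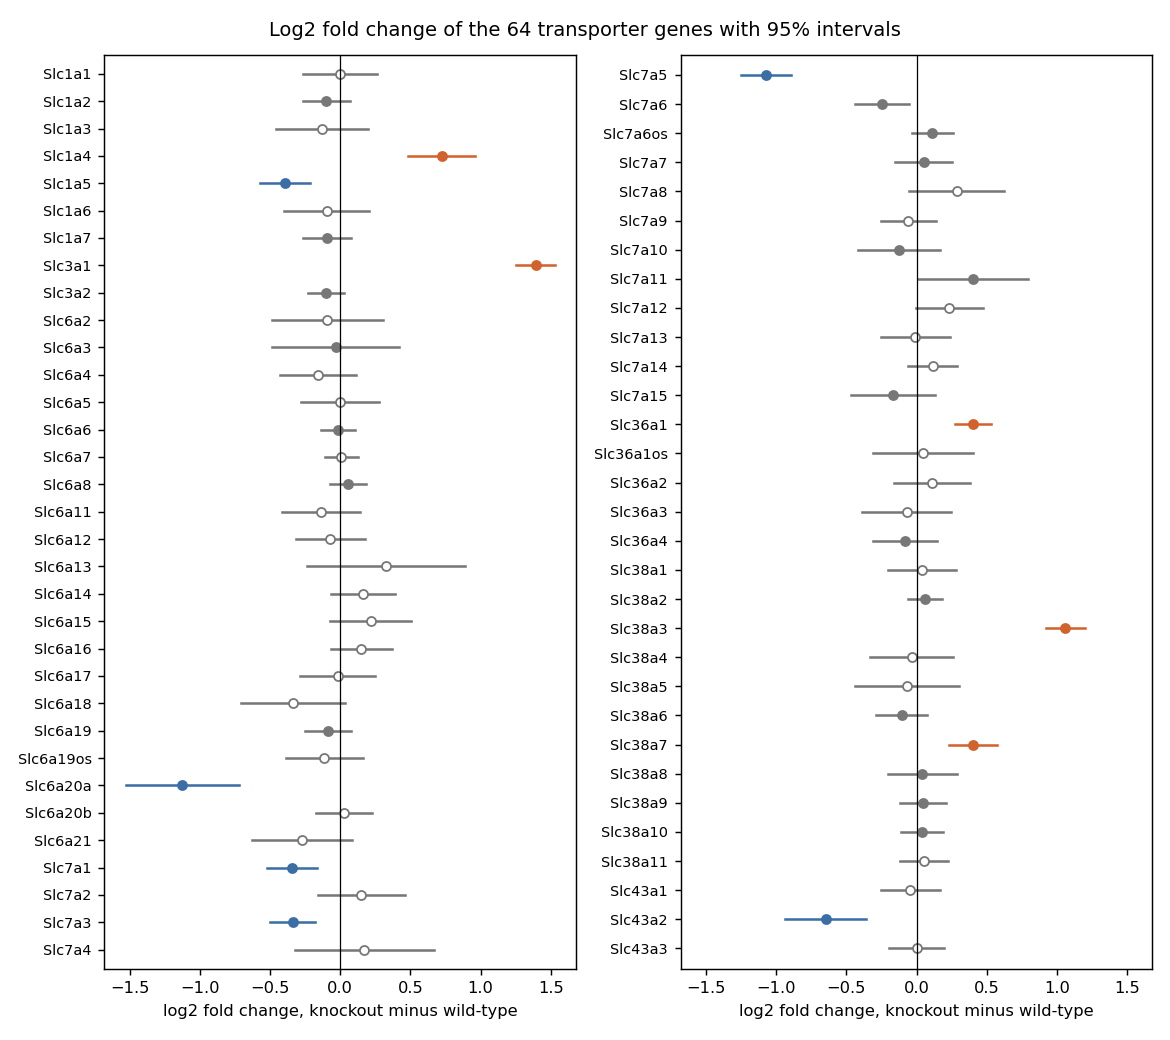
Log2 fold change of each of the 64 members (points) with its 95% interval from limma (lines), ordered by family. Orange marks a rise and blue a fall past an adjusted p of 0.05, grey marks members not past it, and open points have a mean signal below the array median; 5 members are orange and 6 blue.

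Of the 2 heavy chains, Slc3a1 rose. It read 8.27, 8.31, 8.31 and 8.42 on the wild-type arrays and 9.71, 9.74, 9.64 and 9.79 on the knockout arrays. Every knockout array was more than a log2 unit above every wild-type array. The gene rose by 1.39 ± 0.0604, which is 2.62-fold (adjusted p = 1.52e-06, limma, n = 4 and 4). Slc3a2, which also serves integrin signalling as CD98, read 11.49, 11.38, 11.41 and 11.33 in wild-type cells. Its knockout arrays read 11.30, 11.27, 11.32 and 11.30. The groups lay just apart, yet the difference of -0.10 ± 0.0554 did not pass (adjusted p = 0.262, 95% interval -0.23 to 0.02). The Slc3a1 signal minus the Slc3a2 signal on the same array moved from -3.08 ± 0.126 (SD) to -1.58 ± 0.0763, a shift of 1.49, which shows unequal change of the pair and was not tested.

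Of light chains of rBAT, neither Slc7a9 nor Slc7a13 passed the test, and each was dim. Slc7a9, its partner in the kidney, stayed dim at 2.34 ± 0.126 (SD, n = 4) in wild-type and 2.28 ± 0.12 in knockout cells, with overlapping groups and a difference of -0.06 ± 0.0861 (adjusted p = 0.714). Slc7a13, another light chain reported to bind rBAT, stood at 2.64 ± 0.116 and 2.63 ± 0.205 (difference -0.01 ± 0.109, adjusted p = 0.971). Both signals lie far below the array median, where a low level of transcript may go unseen.

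Among light chains of Slc3a2, Slc7a5 fell. It encodes LAT1, which brings leucine and other large neutral amino acids into dividing cells in exchange for glutamine. Its wild-type arrays read 7.58, 7.65, 7.79 and 7.57, and its knockout arrays 6.45, 6.52, 6.68 and 6.66. The highest knockout array was below the lowest wild-type array by far more than the spread within either group. The log2 fold change was -1.07 ± 0.0783, a 2.10-fold decrease (adjusted p = 2.46e-05), and Slc7a5 minus Slc3a2 moved from -3.75 ± 0.119 to -4.72 ± 0.0994 within arrays.

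No other known light chain of Slc3a2 passed. Slc7a6, or y+LAT2, which exports arginine in exchange for glutamine, read 8.37, 8.23, 8.09 and 8.11 in wild-type and 7.96, 7.98, 8.07 and 7.81 in knockout cells. These groups also lay apart, by a narrow gap, at -0.25 ± 0.0853 (adjusted p = 0.0766). That gene did pass under 4 of the 17 other processing choices, for example at -0.32 after the median change of its chromosomal neighbours was subtracted (adjusted p = 0.029). Slc7a7, the related y+LAT1, differed by 0.05 ± 0.0903 (adjusted p = 0.768, 95% interval -0.15 to 0.26). Slc7a11, the cystine and glutamate exchanger xCT that supplies cysteine for glutathione, read 4.55, 4.91, 5.01 and 5.01 in wild-type cells and 5.35, 5.42, 4.79 and 5.54 in knockout cells. Knockout replicate 3 alone fell within the wild-type range, and the difference of 0.40 ± 0.171 did not pass (adjusted p = 0.147). Without that array the difference was 0.56 (adjusted p = 0.0165). Subtracting the median change of chromosomal neighbours left 0.13 (adjusted p = 0.66). The mean of the gene's 2 probe sets gave 0.23 (adjusted p = 0.23), the dimmer one differing by 0.05. Slc7a8, a relative of LAT1, at 0.29 ± 0.148, and Slc7a10, a carrier of small neutral amino acids, at -0.13 ± 0.128, did not pass either. Slc7a12 and Slc7a15, relatives of these light chains not counted here as Slc3a2 partners, gave 0.23 ± 0.106 and -0.17 ± 0.132 and did not pass. Slc7a15 passed when wild-type replicate 2 was left out, at -0.31 (adjusted p = 0.0231).

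**Figure D3:**
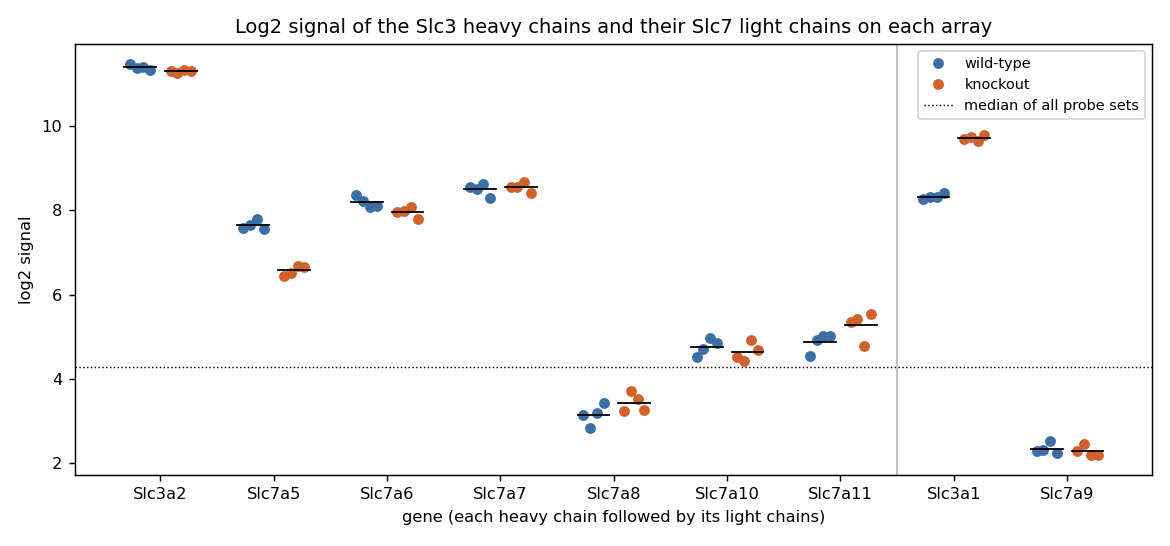
Log2 signal (y axis) on each of the 4 wild-type (blue) and 4 knockout (orange) arrays for the heavy chain Slc3a2 with 6 light chains and the heavy chain Slc3a1 with Slc7a9; bars are group means and the dotted line is the median of all probe sets. Slc3a1 is higher and Slc7a5 lower on every knockout array, while Slc7a9 and Slc7a8 lie below the dotted line in both groups.

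The Slc7 carriers that work without a heavy chain take up arginine, lysine and ornithine. Slc7a1 (CAT1), the widely expressed carrier of this kind, read 7.02, 7.05, 7.34 and 7.22 in wild-type cells and 6.81, 6.82, 6.80 and 6.83 in knockout cells. The groups did not overlap, and the gene fell by 0.34 ± 0.0777 on the log2 scale (adjusted p = 0.013). Its chromosomal neighbours had a median change of -0.11, and taking this away left -0.23 and ended that call (adjusted p = 0.0702). Slc7a3 (CAT3) fell from 4.51 ± 0.0816 to 4.17 ± 0.10, a difference of -0.34 ± 0.0716 (adjusted p = 0.00897) in a gene whose signal straddles the array median. Slc7a2, the CAT2 carrier known from liver, was dim at 3.45 ± 0.131 and 3.60 ± 0.28 and missed the test (adjusted p = 0.532). Slc7a4 and Slc7a14, relatives of the cationic carriers, stood at 0.17 ± 0.218 and 0.11 ± 0.0776, neither past the test.

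Glutamine carriers of the Slc38 family gave 2 rises and no fall among 11 members (18.2%), a share near the 20.9% of all genes. Slc38a3 encodes SNAT3, the system N carrier that moves glutamine into and out of hepatocytes in exchange for protons. It read 9.08, 9.01, 9.04 and 8.89 in wild-type cells and 10.09, 10.12, 10.01 and 10.05 in knockout cells. Both groups were tight and well separated, and the rise of 1.06 ± 0.0614 is 2.09-fold (adjusted p = 6.82e-06). The lysosomal glutamine exporter Slc38a7 (SNAT7), whose listed promoter holds the E-box, read 8.14, 8.15, 8.32 and 8.03 against 8.61, 8.61, 8.47 and 8.56. Its groups did not overlap either, and the gene rose by 0.40 ± 0.074 (adjusted p = 0.00443).

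None of the other 9 Slc38 members passed. Slc38a2 (SNAT2), the system A carrier that starved cells induce, was bright and close in both groups, at 10.49 ± 0.046 and 10.55 ± 0.0385, a difference of 0.06 ± 0.0537 (adjusted p = 0.534, 95% interval -0.06 to 0.18). Within arrays Slc38a3 minus Slc38a2 moved from -1.49 ± 0.105 to -0.49 ± 0.0429. Slc38a9, the lysosomal arginine sensor that reports to mTORC1, differed by 0.04 ± 0.0726 (adjusted p = 0.747). Slc38a6 and Slc38a10 stood at -0.11 ± 0.081 and 0.04 ± 0.0662. Slc38a4 (SNAT4), which is known from adult liver, and the system A carrier Slc38a1 were dim, at wild-type means of 2.88 and 3.02, as were Slc38a5 and Slc38a11, with Slc38a8 near the array median. Differences of these 5 members ran between -0.07 and 0.05 and none passed.

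The neutral carriers of the Slc1 family went opposite ways. Slc1a4 (ASCT1), which exchanges alanine, serine and cysteine, read 6.69, 6.43, 6.76 and 6.496 in wild-type cells and 7.48, 7.35, 7.10 and 7.32 in knockout cells. It rose by 0.72 ± 0.104, or 1.65-fold, with no overlap between groups (adjusted p = 0.00117). Slc1a5 (ASCT2), the glutamine exchanger of dividing cells, read 7.73, 7.59, 7.49 and 7.51 against 7.26, 7.22, 7.22 and 7.04. All knockout arrays were lower, at -0.39 ± 0.0783 (adjusted p = 0.00678). Slc1a4 minus Slc1a5 within arrays shifted by 1.11 between genotypes, with SDs of 0.184 over wild-type and 0.18 over knockout arrays. That shift was not tested and holds for the brighter Slc1a5 probe set.

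The fall of Slc1a5 rests on the brighter of its 2 probe sets. The dimmer one, with a mean of 5.01, differed by 0.26 ± 0.203 in the opposite direction and did not pass, and the mean of both gave -0.07 (adjusted p = 0.793). Subtracting the neighbours' median change left Slc1a5 at -0.24 (adjusted p = 0.062). The 5 high-affinity glutamate carriers of this family clear glutamate from synapses. Slc1a1, Slc1a2, Slc1a3, Slc1a6 and Slc1a7 differed by -0.13 to 0.0004 and none passed. After the neighbours' median change of 0.22 was subtracted, Slc1a2 stood at -0.32 and did pass (adjusted p = 0.0165).

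**Figure D4:**
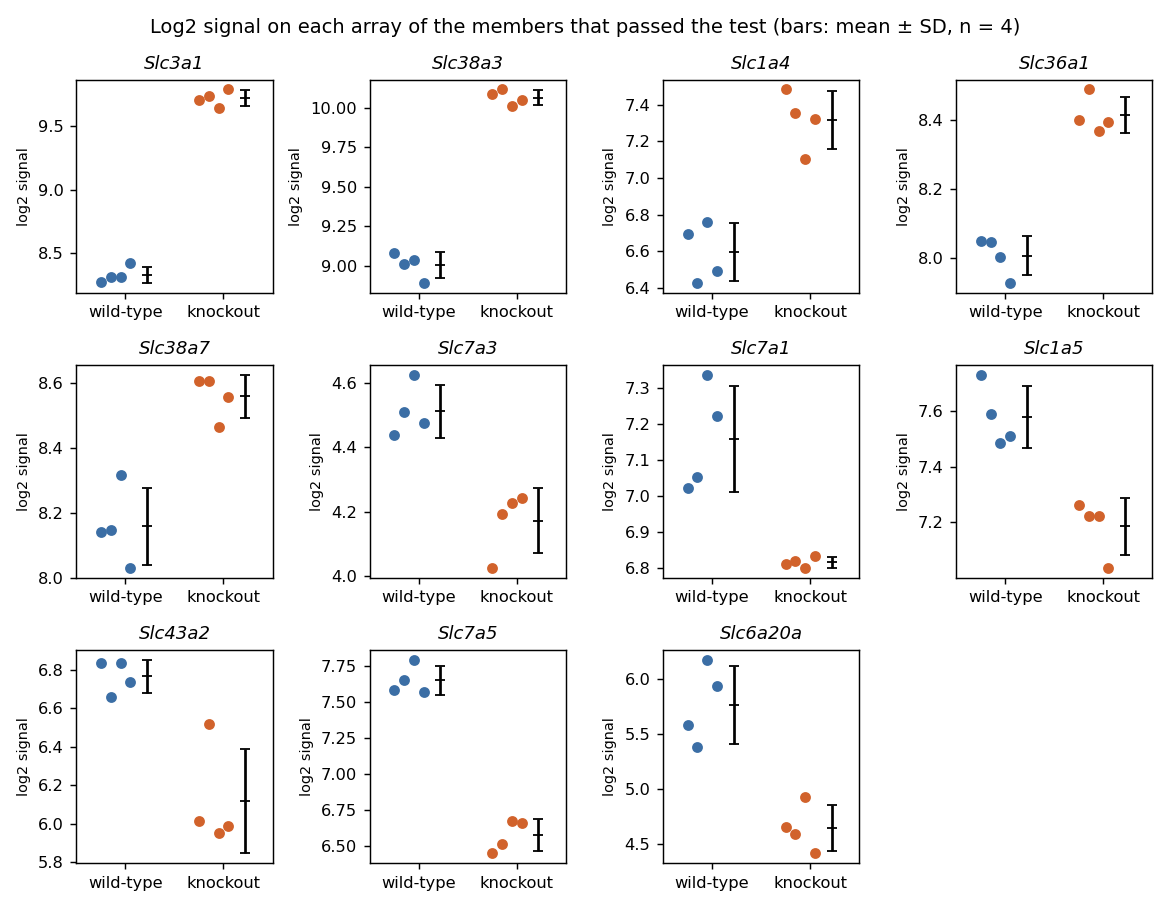
Log2 signal on each array of the 11 members past the test, ordered from the largest rise to the largest fall, with wild-type arrays in blue and knockout arrays in orange and the mean ± SD of 4 arrays beside them; each panel has its own scale. The groups do not overlap in any panel, and knockout replicate 2 of Slc43a2, at 6.52, stands nearest to the wild-type arrays.

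Among Slc36 carriers, Slc36a1 (PAT1) read between 7.93 and 8.05 on the wild-type arrays and 8.40, 8.49, 8.37 and 8.39 on the knockout arrays, with no overlap. The rise of 0.40 ± 0.0572 passed (adjusted p = 0.00104). Slc36a1, Slc36a2 and Slc36a3 lie together on chromosome 11 (chr11:55124815-55236330 in GRCm38.p6), and the other two were below the array median, differing by 0.11 ± 0.118 and -0.07 ± 0.139 without passing. Slc36a4, a carrier of proline and tryptophan and bright here, gave -0.08 ± 0.0996 (adjusted p = 0.652). The opposite-strand gene Slc36a1os was dim and differed by 0.05 ± 0.157.

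Of the Slc43 facilitators, Slc43a2 (LAT4), which lets branched-chain amino acids and phenylalanine leave cells, read 6.84, 6.66, 6.83 and 6.73 in wild-type cells. Knockout arrays read 6.01, 6.52, 5.95 and 5.99, lower on all 4, with replicate 2 closest to wild-type. The gene fell by 0.65 ± 0.126 on the log2 scale, 1.57-fold (adjusted p = 0.00611), and by 0.78 without that array. Slc43a1 (LAT3), at -0.04 ± 0.093, and Slc43a3, a nucleobase carrier, at 0.003 ± 0.0867, did not pass and were dim.

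In the Slc6 family 1 of 20 members passed (5.0%), against 20.9% of all genes. None of the 15 members below the array median passed, where 3.96% of all genes did. The 1 that passed was among the 5 brighter members, a range where 35.1% of all genes passed. Slc6a20a (SIT1), a proline and betaine carrier, read 5.58, 5.38, 6.18 and 5.93 in wild-type cells and 4.65, 4.59, 4.92 and 4.41 in knockout cells. Wild-type arrays varied by most of a log2 unit and still all lay above the knockout arrays. The difference was -1.12 ± 0.178, a 2.18-fold decrease (adjusted p = 0.00194). Its neighbour and close paralog Slc6a20b, on the same stretch of chromosome 9 (chr9:123593823-123678832 in GRCm38.p6), was below the array median at 4.16 ± 0.13 and 4.18 ± 0.12. The sources used here do not say whether probes of the pair cross-hybridise.

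None of the carriers of transmitters, taurine and creatine passed the test. Slc6a6, which imports taurine for bile acid conjugation and osmotic balance, read 11.85, 11.87, 11.90 and 11.82 in wild-type cells and 11.82, 11.83, 11.91 and 11.82 in knockout cells. The groups overlapped fully, at -0.02 ± 0.0532 (adjusted p = 0.865, 95% interval -0.14 to 0.10). Slc6a8, the creatine carrier, gave 9.38 ± 0.0355 and 9.43 ± 0.0664 (adjusted p = 0.57, 95% interval -0.07 to 0.19). Carriers of noradrenaline (Slc6a2), dopamine (Slc6a3), serotonin (Slc6a4), glycine (Slc6a5) and GABA or betaine (Slc6a11, Slc6a12 and Slc6a13) differed by -0.16 to 0.33. With taurine and creatine carriers included, 0 of these 9 genes passed limma's test. Of the 9, 6 lie below the array median, where 3.96% of all genes passed, and 3 at or above it, where 35.1% passed. An unadjusted p under 0.05 was found for 0 of the 9, against 6902 of 22180 genes. Of 11 neuron markers 7 lay below the array median, and of the others Map2, also made outside neurons, rose by 0.52 ± 0.0747, while Syt1 did not pass. Among the dim ones Slc17a6, a vesicular glutamate carrier, fell by 0.42 ± 0.11 on the log2 scale (adjusted p = 0.0262). With Map2 it makes 18.2% of the list, against 20.9% of all genes. The list's mean ran from 4.26 to 4.45 over wild-type and from 4.31 to 4.35 over knockout arrays.

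The remaining Slc6 genes carry amino acids or have no settled substrate. Slc6a19, which imports neutral amino acids in gut and kidney, stood at -0.09 ± 0.0729, and its neighbours on chromosome 13, Slc6a18 and Slc6a19os, at -0.34 ± 0.162 and -0.11 ± 0.121. Slc6a15, a carrier of branched-chain amino acids known from neurons, differed by 0.22 ± 0.127. It reached 0.42 after the neighbours' median change of -0.20 was subtracted (adjusted p = 0.0488). Slc6a7, Slc6a14, Slc6a16, Slc6a17 and Slc6a21 ran from -0.28 to 0.16, and none of this group but Slc6a20a passed. Slc7a6os, beside Slc7a6 on chromosome 8, stood at 0.11 ± 0.0646.

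**Figure D5:**
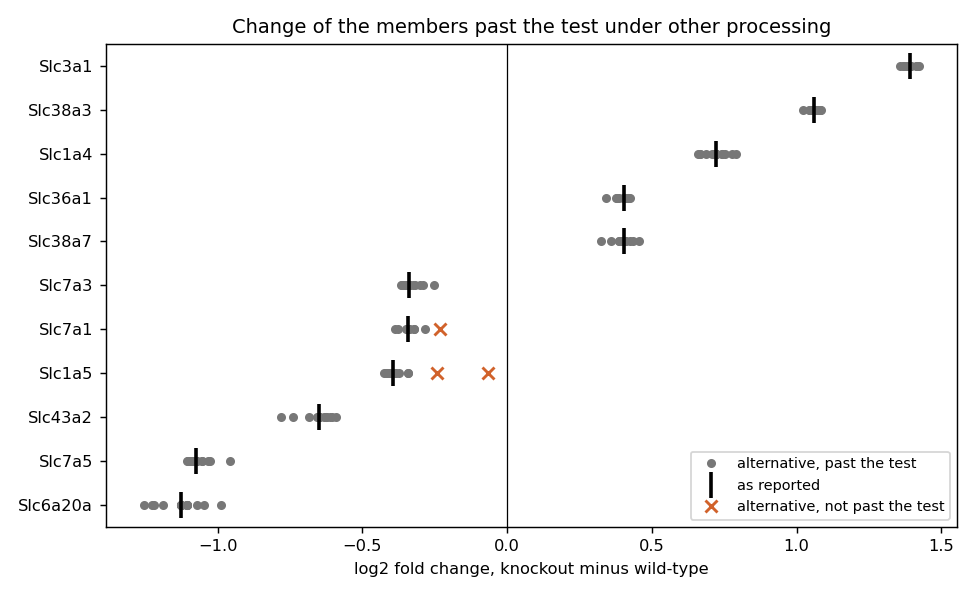
Log2 fold change (x axis) of the 11 members past the test, as reported (black bars) and under each of up to 17 other processing choices (grey points where past an adjusted p of 0.05, orange crosses where not). Every value keeps its sign; the crosses are 2 for Slc1a5, at -0.07 and -0.24, and 1 for Slc7a1, at -0.23.

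Enzymes that use the carried substrates inside the cell were mostly higher where they changed. Of 40 measured genes on that list, 20 rose and 2 fell (55% changed, median 0.28), against 20.9% of all genes and 35.1% of genes at or above the array median, where 31 of the 40 lie. Whether the list differs from the carriers was not tested. Cps1, the entry of the urea cycle, rose by 1.94 ± 0.0718 from 9.53. Cth and Cbs, which make cysteine from homocysteine, rose by 1.34 ± 0.0572 and 1.22 ± 0.0611, and Prodh2, a hydroxyproline dehydrogenase, by 1.14 ± 0.067. The falls were Odc1, which starts polyamine synthesis from ornithine, at -0.45 ± 0.0841, and Got1, the cytosolic aspartate aminotransferase, at -0.28 ± 0.0543. For Glul, which makes glutamine, the difference was 0.001 ± 0.0574 (adjusted p = 0.992).

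Amino acid response genes linked to ATF4, which induces several of the carriers when amino acids run short, went both ways. Of 23 measured, all brighter than the array median, 9 rose and 3 fell (52.2% changed, median 0.17), against 35.1% of all genes that bright. Besides Cth, Psat1 and Phgdh of serine synthesis rose by 0.59 ± 0.0568 and 0.79 ± 0.112, while the transcription factor Atf3 fell by 1.26 ± 0.13 on the log2 scale. For Atf4 itself the difference of 0.20 ± 0.0695 was not past the threshold (adjusted p = 0.0744). Genes of lysosomal amino acid sensing and mTORC1 rose in 8 of 37 cases and fell in 4 (32.4% changed, median 0.06), with 1 of the 37 below the array median, so the share was near the 35.1% of bright genes. Lamtor2 and Lamtor3 of the Ragulator scaffold rose by 0.55 ± 0.065 and 0.38 ± 0.0582, Tsc1, which restrains mTORC1, rose by 0.34 ± 0.0675, and Sesn3, a sestrin, fell by 0.57 ± 0.0556 on the log2 scale.

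Of 12 measured partners and regulators, 2 rose and 1 fell (25%), against 20.9% of all genes. At or above the array median, where 10 of the 12 lie, 35.1% of all genes passed. Cd44, whose protein stabilises xCT at the surface, fell by 1.07 ± 0.0724 on the log2 scale, while the kinases Prkca and Wnk4 rose by 0.55 ± 0.0556 and 0.52 ± 0.0883. Among 19 measured carriers of amino acids, peptides and transmitters from other families, 1 rose and 3 fell (21.1%), near the share of all genes. Slc17a9, the vesicular nucleotide carrier, rose by 0.94 ± 0.13. The lysosomal peptide carrier Slc15a4 fell by 0.55 ± 0.0688, the peptide carrier Slc15a2 by 0.51 ± 0.0903 and the vesicular glutamate carrier Slc17a6 by 0.42 ± 0.11 on the log2 scale, the last 2 from dim signals.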

How the data were processed

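Biotin-labelled RNA of 8 cultures, 4 of each genotype, was hybridised to Affymetrix mouse arrays, per the labels' protocols. The authors deposited 1 log2 value per probe set and array; the log2 scale was read from the values, and their background correction, normalization and summarisation are not stated in the labels or the file. No further normalization was added. Of 41345 probe sets, 23521 had 1 gene symbol in GEO's platform annotation, 1814 had several and 16010 none. Positions came from RefSeq's GRCm38.p6 gene table (21994 of 22180 genes matched by Entrez Gene identifier; all 64 members), and promoters from RefSeq's GRCm38.p6 promoter table.

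Genotypes were compared with lmFit and eBayes of limma 3.58.1 under R 4.3.3, on all 8 arrays with no covariate, two-sided. The fit was also run on simulated data for 22180 genes and 4 against 4 arrays. There it found 94.3% of simulated log2 changes of size 1, 55% at size 0.5 and 0% at size 0.25. That run made 129 calls in all, against 4626 in the real comparison. Adjusted p-values depend on how many genes change, so these shares do not measure the power reached in the real data. The precision is limited by 4 arrays per group. Nothing beyond the word separate tells how independent the cultures were, so p-values measure the spread between these cultures. Members that passed were named, with each array's value where the change was at least 0.5, and also the 8 with the highest mean signal and both heavy chains. Up to 4 genes with the smallest adjusted p were named per pathway list, plus single exceptions; Glul, Atf4, Odc1, Got1 and the cell type markers were added after their values were seen. The members and all lists were chosen with earlier results of these data known. Deviations of same-numbered arrays correlated weakly over all genes, with r from -0.0015 to 0.0589. Wild-type replicates 1 and 3 correlated most with the knockout array of the same number, replicates 2 and 4 with another. Whether same-numbered arrays shared a batch was not tested. Figures used matplotlib 3.10.9.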

Additional observations from a re-analysis of the deposited data

Results flagged for a closer look

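In 9 of 128 groups of 4 arrays (64 members, 2 genotypes), 1 array stood apart from the other 3 by Dixon's criterion at 95%; chance flags about 1 in 20 groups. Among members past the test this was Slc43a2, where knockout replicate 2 read 6.52 and the others 5.95 to 6.01. Of the bright members, Slc6a6 read 11.91 on knockout replicate 3 (others 11.82 to 11.83) and Slc38a9 read 7.72 on wild-type replicate 4 (others 7.97 to 7.98). Wild-type replicate 4 was also low for Slc6a12, at 3.80, and for Slc6a3, at 4.10, and wild-type replicate 3 for Slc7a2, at 3.25. Knockout replicate 2 was low for Slc1a1, at 3.29, and Slc7a13, at 2.32, and high for Slc38a11, at 3.21. The causes were not tested.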

How the results depend on the processing

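The 17 other processing choices were array weights, median centring, quantile normalization, robust variances with an intensity trend, dropping the dimmest 25% or 50% of genes, averaging a gene's probe sets, the replicate block, subtraction of the median change of 30 bright chromosomal neighbours on each side, and leaving out each array. The neighbours' median was subtracted as a fixed value, so its own uncertainty does not enter the adjusted p-values after that step. Genes changed ran from 3717 to 5573 and members changed from 5 to 6 higher and 5 to 8 lower. With the replicate number as a block, the same 11 members passed as without it. The member median ran from -0.032 to 0.021 with single arrays left out, the latter without wild-type replicate 3, and Vwa8 from -3.818 to -3.73. No named value past the test reversed. Calls lost were those of Slc1a5 and Slc7a1 given in the report; Slc7a3 was not tested without the dimmest 50%. Slc3a2 passed with an intensity trend and robust variances, at -0.102 (adjusted p = 0.033; 0.033 to 0.46 over all). Low signal in 34 of the members limits what 4 arrays can show.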
